A study of Neurospora crassa with 4 samples.

Results

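Genes described as alcohol, aldehyde or short-chain dehydrogenases, aldo-keto reductases or enzymes of pyridoxine (vitamin B6) metabolism were examined in *Neurospora crassa*. They were chosen by words in the Broad gene descriptions that the authors deposited and numbered 59 of the 9691 rows. Descriptions naming acyl, fatty or mitochondrial functions were left out, and so were the alcohol dehydrogenases NCU01754 and NCU02476 and the aldehyde dehydrogenase NCU03415, which belong to ethanol and acetate metabolism. By first matching word, the 59 genes comprised 27 short-chain dehydrogenases, 10 alcohol dehydrogenases, 9 aldehyde dehydrogenases, 4 semialdehyde dehydrogenases, 4 aldo-keto reductases and 5 vitamin B6 genes. A description is not a measured activity. NCU07779, described as a glucose-repressible alcohol dehydrogenase, has the RefSeq symbol *ccr4*, which in *Saccharomyces cerevisiae* names a subunit of an mRNA deadenylase, and it was kept because the words matched.

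Transcripts were measured in 4 libraries, 1 each of Δ*czt-1* treated with staurosporine, Δ*czt-1* with the solvent DMSO, the wild type with staurosporine and the wild type with DMSO. In all of them conidia had grown for 6 h in minimal medium at 26° in constant light before 20 μM staurosporine, a protein kinase inhibitor, or DMSO was added for 1 h. Δ*czt-1* is a deletion strain lacking NCU09974, a gene for a zinc cluster transcription factor. The comparisons ask how these genes respond to a drug known to induce cell death and how the response differs without CZT-1.

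There were no replicates, so a difference compares 2 libraries, has no replicate error and was given no test. Levels are FPKM, a unit normalized for transcript length and library size. The expression of *czt-1* was 1.54 FPKM in Δ*czt-1* with staurosporine and 2.26 FPKM with DMSO, against 384 FPKM in the wild type with staurosporine and 19.7 FPKM with DMSO. The strains also differed in the pheromone gene *mfa-1*, which was at 2367 and 703 FPKM in Δ*czt-1* with staurosporine and DMSO and at 4.32 and 3.72 FPKM in the wild type. Strain background and the deletion cannot be told apart. Transcripts of 4 conidial marker genes, *con-6*, *con-8*, *con-10* and *eas*, were all higher with staurosporine, by 1.10 to 3.78 on the log2(FPKM + 1) scale in Δ*czt-1* and by 1.09 to 2.01 in the wild type. Their part in the differences reported here was not tested. RNA came from whole cultures, in which fewer cells of a type and less RNA per cell cannot be told apart.

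The enzymes considered here move hydrogen between a nicotinamide cofactor and an alcohol, aldehyde or ketone. Alcohol dehydrogenases interconvert alcohols and aldehydes, aldehyde dehydrogenases oxidize aldehydes to acids, and aldo-keto reductases reduce aldehydes and ketones with NADPH. Short-chain dehydrogenases form a large family with substrates from sugars to steroids, and for most fungal members the substrate is not known. Several of these enzymes are known for removing reactive aldehydes that form under oxidative stress. Vitamin B6 enters the set through pyridoxal reductase, which reduces pyridoxal to pyridoxine and in *Schizosaccharomyces pombe* is an aldo-keto reductase, and through PDX-1 and PDX-2, the subunits of the synthase of pyridoxal 5'-phosphate, the cofactor of many enzymes of amino acid metabolism.

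Of the 59 genes, 54 had an FPKM of at least 1 in at least 1 library and entered the counts of genes that changed. Differences were taken as log2(FPKM + 1), on which low genes appear to change less than they did, and a difference of at least 2-fold on this scale is called a rise or a fall, by size alone. The genes NCU02850 and NCU11289 passed only through the Δ*czt-1* staurosporine library and NCU01861 only through both staurosporine libraries, so that any call of theirs towards those libraries was set by the filter. The 5 genes that did not pass were the aldehyde dehydrogenase NCU07053 and the short-chain dehydrogenases NCU02920, NCU02922, NCU07768 and NCU08361, of which the highest value anywhere was 0.492 FPKM. NCU07053 was listed at 0 in Δ*czt-1* with staurosporine. NCU02922 was listed at 0 in the wild type with staurosporine, NCU08361 in that library and in Δ*czt-1* with DMSO, and NCU02920 in every library except Δ*czt-1* with DMSO.

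The most expressed gene of the set depended on the library. In the wild type with staurosporine it was the pyridoxal reductase NCU09141, which held 62.2% of the 9328 FPKM summed over the 59 genes. In the other 3 libraries it was *pdx-1* (NCU06550), which held 17.2% of 3366 FPKM in Δ*czt-1* with staurosporine, 56.2% of 4664 FPKM in Δ*czt-1* with DMSO and 56.2% of 5118 FPKM in the wild type with DMSO. Without these 2 genes, the sums were 2714 and 2005 FPKM in Δ*czt-1* with staurosporine and DMSO, and 2492 and 2157 FPKM in the wild type with staurosporine and DMSO. The median over the 59 genes lay between 18.4 and 27.4 FPKM in the 4 libraries.

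The response of NCU09141 (RefSeq symbol *mig-9*) to staurosporine differed between the strains more than that of any other gene of the set. The gene was at 72.0 FPKM in Δ*czt-1* with staurosporine and at 37.1 FPKM with DMSO, while the wild type had 5802 FPKM with staurosporine and 84.9 FPKM with DMSO. In the wild type the level was thus 68.3-fold higher with staurosporine (6.08 on the log2 scale), the third largest rise among the 7896 genes that passed the same filter, and the transcript became the third most abundant of that library. In Δ*czt-1* the change was 0.94, short of 2-fold, but 1.60 when all 4 libraries were brought to an equal FPKM sum. The staurosporine libraries differed by −6.31 between Δ*czt-1* and the wild type and the responses by −5.14, in each case the second lowest of the 7896 genes. Already with DMSO the gene was lower in Δ*czt-1*, with a difference of −1.17, which became −0.88 at equal sums.

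The second gene described as a pyridoxal reductase, NCU07402, had no such response. Its level was 33.1 FPKM in Δ*czt-1* with staurosporine and 17.8 FPKM with DMSO, and 23.5 FPKM in the wild type with staurosporine and 19.2 FPKM with DMSO. The changes with staurosporine, 0.86 in Δ*czt-1* and 0.28 in the wild type, were both below 2-fold, though at equal FPKM sums they came to 1.51 and 1.15.

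The neighboring genes *pdx-1* and *pdx-2* (NCU06549), with no gene between them in the RefSeq annotation, both fell with staurosporine in both strains. For *pdx-1* the libraries had 580.1 FPKM in Δ*czt-1* with staurosporine and 2622 FPKM with DMSO, and 1034 FPKM in the wild type with staurosporine and 2876 FPKM with DMSO. For *pdx-2* they had 65.4 and 220.1 FPKM in Δ*czt-1* with staurosporine and DMSO, and 77.4 and 210.2 FPKM in the wild type with staurosporine and DMSO. The DMSO libraries of the strains therefore lay close together, and the staurosporine libraries lay below both of them. In Δ*czt-1* the falls were −2.17 for *pdx-1* and −1.74 for *pdx-2*, against −1.47 and −1.43 in the wild type, where equal FPKM sums left −0.56 and −0.53, both short of 2-fold.

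The pyridoxine kinase NCU10351, whose product phosphorylates the vitamin, was at 5.24 FPKM in Δ*czt-1* with staurosporine and 20.97 FPKM with DMSO, and at 13.5 FPKM in the wild type with staurosporine and 17.3 FPKM with DMSO. It fell in Δ*czt-1* (−1.82), while the wild-type change was −0.33 and the responses differed by −1.48. Of the 5 vitamin B6 genes, none rose and 3 fell with staurosporine in Δ*czt-1*, where 18.2% of the 7896 genes rose and 19.6% fell, and 1 rose and 2 fell in the wild type, where 12.8% rose and 14.0% fell. At equal FPKM sums 2 rose and 3 fell in Δ*czt-1*, and 2 rose and none fell in the wild type. All genes then had 34.8% rises and 10.5% falls in Δ*czt-1*, and 42.5% and 4.40% in the wild type. Both other genes with pyridoxamine in their description encode pyridoxamine phosphate oxidases, which make the active cofactor from phosphorylated precursors. NCU05165 rose in both strains, with 25.3 and 6.08 FPKM in Δ*czt-1* with staurosporine and DMSO (1.89) and 12.8 and 5.67 FPKM in the wild type (1.05). NCU08269 (*pdx-4*) had 67.7 and 38.9 FPKM in Δ*czt-1* with staurosporine and DMSO and 43.1 and 79.1 FPKM in the wild type. Its changes of 0.78 and −0.86 were both below 2-fold on the deposited scale.

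**Figure D1:**
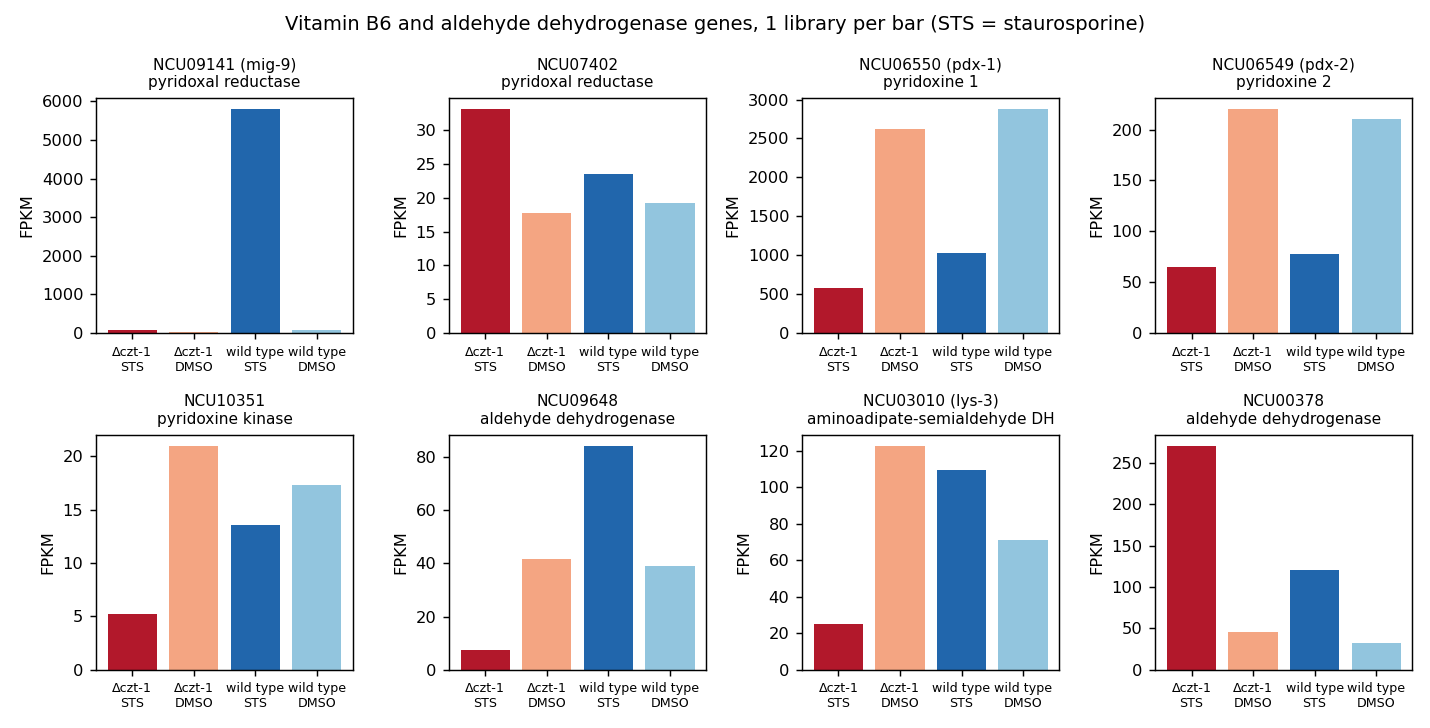
FPKM of 8 genes in the 4 libraries, each bar 1 library on a linear axis from 0, ordered as Δczt-1 with staurosporine (STS) and DMSO and wild type with staurosporine and DMSO. NCU09141 stands at 5802 FPKM in the wild type with staurosporine and at no more than 84.9 FPKM in the other libraries, whereas pdx-1 and pdx-2 are low in both staurosporine libraries.

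Across the set, rises outnumbered falls in both strains. In Δ*czt-1*, 18 of the 54 genes (33.3%) rose with staurosporine and 8 (14.8%) fell, against 18.2% and 19.6% of the 7896 genes. The wild type had 12 rises (22.2%) and 7 falls (13.0%), against 12.8% and 14.0% of the 7896 genes, so that the share of falls was near that of all genes. Without the 3 genes that passed the filter in staurosporine libraries only, 16 of 51 genes rose and 8 fell in Δ*czt-1*. In the wild type 11 of these 51 rose and 7 fell. The median change was 0.57 in Δ*czt-1* and 0.28 in the wild type, and that of all genes 0.00 and 0.11. When every library was brought to an equal FPKM sum, the median gene of the table itself moved to 0.61 in Δ*czt-1* and 0.84 in the wild type, and the set had 28 rises (51.9%) and 6 falls (11.1%) in Δ*czt-1*, against 34.8% and 10.5% of the 8027 genes that then passed, and 29 rises (53.7%) and 2 falls (3.70%) in the wild type, against 42.5% and 4.40%. Measured from that median gene, the set had medians of 0.51 and 0.25. With each change centred on the median gene instead, the wild type had 10 rises (18.5%) and 8 falls (14.8%), against 10.5% and 15.7% of all genes.

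A total of 9 of the 54 genes rose in both strains, against 6.51% of the 7896 genes, and 4 fell in both, against 9.70%. The 9 include NCU01861, which passed the filter only through the staurosporine libraries. The 9 were the short-chain dehydrogenases NCU00148, NCU01107, NCU01861, NCU02480 and NCU05164, the aldehyde dehydrogenases NCU00378 and NCU00715, the aldo-keto reductase NCU07240 and the methylmalonate-semialdehyde dehydrogenase NCU09266. The 4 were *pdx-1*, *pdx-2* and the alcohol dehydrogenases NCU08402 and NCU09798. A further 12 genes passed 2-fold in Δ*czt-1* and not in the wild type, as did 20.6% of the 7896 genes, and 23 passed in neither, as did 52.6%. The 5 genes NCU00606, NCU04823, NCU07042, NCU08057 and NCU09141 passed in the wild type and not in Δ*czt-1*, as did 9.63% of the 7896 genes. The counts of genes that passed in 1 strain alone were thus near the shares of all genes. The 2 responses share no library. Over the 54 genes, which are no replicates of each other, they had a Pearson's r of 0.578 and a Spearman's rho of 0.672, against 0.619 and 0.563 over the 7896 genes. Without NCU09141, which lies far from the others, r was 0.687.

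**Figure D2:**
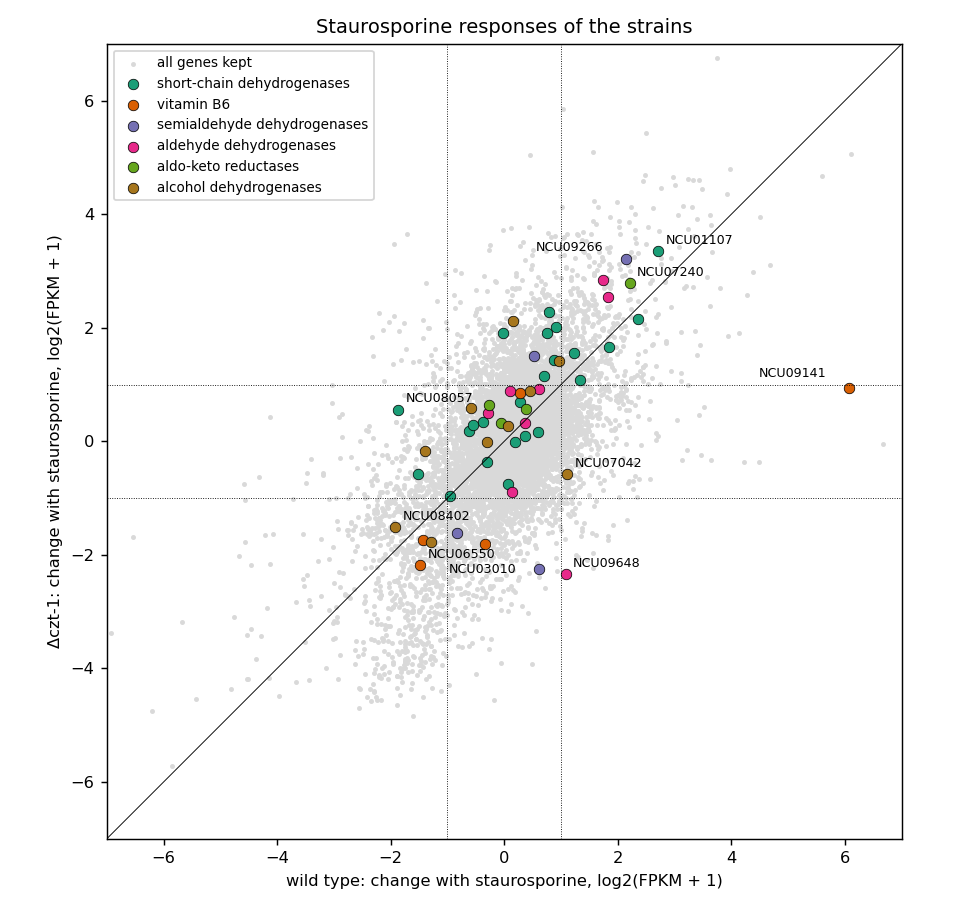
Change with staurosporine in Δczt-1 (vertical axis) against that in the wild type (horizontal axis), both as differences of log2(FPKM + 1); grey points are the 7896 genes, colored points the 54 genes of the set by class, dotted lines 2-fold and the solid line equal changes. NCU09141 lies at 6.08 in the wild type and 0.94 in Δczt-1, and NCU09648 and NCU03010 are below −2 in Δczt-1 and above 0 in the wild type.

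Of the 8 aldehyde dehydrogenases that passed, 6 had a change above 0 with staurosporine in Δ*czt-1* and 7 in the wild type. Of the 7896 genes, 3948 had a change above 0 in Δ*czt-1* and 4368 in the wild type. By at least 2-fold, 2 rose and 1 fell in Δ*czt-1*, and 3 rose and none fell in the wild type. All genes had 18.2% rises and 19.6% falls in Δ*czt-1* and 12.8% and 14.0% in the wild type. With equal FPKM sums, 5 aldehyde dehydrogenases rose in Δ*czt-1* and 6 in the wild type, against 34.8% and 42.5% of all genes. The largest rises were those of NCU00715, described as a betaine aldehyde dehydrogenase, the enzyme that makes glycine betaine, and of NCU00378. NCU00715 had 50.5 FPKM in Δ*czt-1* with staurosporine and 6.19 FPKM with DMSO, and 15.8 FPKM in the wild type with staurosporine and 4.02 FPKM with DMSO. NCU00378 reached 271 FPKM in Δ*czt-1* with staurosporine, against 45.8 FPKM with DMSO, and 120.2 FPKM in the wild type with staurosporine, against 32.9 FPKM with DMSO. Both staurosporine libraries were thus above both DMSO libraries for either gene, with the highest value in Δ*czt-1*. The changes were 2.84 in Δ*czt-1* and 1.74 in the wild type for NCU00715, and 2.54 and 1.84 for NCU00378.

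NCU09648, described only as an aldehyde dehydrogenase, changed at least 2-fold in opposite directions in the strains. Its level was 7.37 FPKM in Δ*czt-1* with staurosporine and 41.5 FPKM with DMSO, and 84.1 FPKM in the wild type with staurosporine and 39.1 FPKM with DMSO. The DMSO libraries differed by 0.08 on the log2 scale, while the staurosporine libraries differed 11.4-fold and lay on either side of them. The gene fell by 2.34 in Δ*czt-1* and rose by 1.09 in the wild type. On the deposited scale 1 gene of the set had such a pattern, against 0.950% of the 7896 genes. With every change centred on the median gene the wild-type rise was 0.98, short of 2-fold. Opposite changes were found for 3 genes at equal FPKM sums, NCU09648 (−1.73 in Δ*czt-1* and 1.98 in the wild type), *lys-3* (−1.59 and 1.52) and the short-chain dehydrogenase NCU08057 (1.10 and −1.12). The share of all genes with such a pattern was not computed at equal FPKM sums, so this count has no background.

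The other 5 aldehyde dehydrogenases that passed stayed below 2-fold with staurosporine in both strains. The most expressed with staurosporine in the wild type was NCU08669, with 109 and 56.8 FPKM in Δ*czt-1* with staurosporine and DMSO and 96.0 and 62.8 FPKM in the wild type. The product of *ylo-1* (NCU04013) oxidizes an apocarotenoid aldehyde in the synthesis of neurosporaxanthin, the orange pigment of *N. crassa*. It was at 113 FPKM in Δ*czt-1* with staurosporine and 89.9 FPKM with DMSO, and at 75.2 FPKM in the wild type with staurosporine and 58.3 FPKM with DMSO, higher in Δ*czt-1* by 0.58 with staurosporine and by 0.61 with DMSO.

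The semialdehyde dehydrogenases serve amino acid metabolism, and in Δ*czt-1* both named for breakdown rose with staurosporine while both named for synthesis fell. NCU09266, a methylmalonate-semialdehyde dehydrogenase of valine breakdown, had 129 FPKM in Δ*czt-1* with staurosporine and 12.9 FPKM with DMSO, and 66.3 FPKM in the wild type with staurosporine and 14.1 FPKM with DMSO. NCU00936, a succinate semialdehyde dehydrogenase, the last enzyme of the GABA shunt, had 103 FPKM in Δ*czt-1* with staurosporine and 35.3 FPKM with DMSO, and 70.3 FPKM in the wild type with staurosporine and 48.8 FPKM with DMSO. NCU09266 rose in both strains, by 3.22 in Δ*czt-1* and 2.15 in the wild type. NCU00936 rose in Δ*czt-1* (1.51) and changed by 0.52 in the wild type, or by 1.41 at equal FPKM sums.

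Of the genes for synthesis, *hom-1* (NCU00554) encodes aspartate-semialdehyde dehydrogenase, on the path to methionine and threonine. It had 121 FPKM in Δ*czt-1* with staurosporine and 372 FPKM with DMSO, and 193 FPKM in the wild type with staurosporine and 342 FPKM with DMSO. It fell in Δ*czt-1* by 1.61, which became −0.94 at equal FPKM sums, and its change was −0.82 in the wild type. The lysine gene *lys-3* (NCU03010), for the large subunit of L-aminoadipate-semialdehyde dehydrogenase, was at 25.0 FPKM in Δ*czt-1* with staurosporine and 123 FPKM with DMSO, and at 109 FPKM in the wild type with staurosporine and 71.0 FPKM with DMSO. The Δ*czt-1* staurosporine library was the lowest and the Δ*czt-1* DMSO library the highest. The fall in Δ*czt-1* was −2.25, the wild-type change 0.62, or 1.52 at equal FPKM sums, and the difference between the responses −2.87. These are 4 genes, and the grouping by breakdown and synthesis was made after their values were seen.

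The aldo-keto reductases had 1 gene that rose, in both strains. NCU07240, described as an aflatoxin B1 aldehyde reductase, an enzyme known in mammals for reducing the dialdehyde of that toxin, was at 185 FPKM in Δ*czt-1* with staurosporine and 26.1 FPKM with DMSO, and at 169 FPKM in the wild type with staurosporine and 35.6 FPKM with DMSO. The staurosporine libraries were close together, 7.11-fold above the DMSO library in Δ*czt-1* (2.78) and 4.75-fold above it in the wild type (2.22). The other 3 aldo-keto reductases, NCU01703, NCU01759 (*mig-5*) and the weakly expressed NCU11289, stayed below 2-fold in every comparison on the deposited scale. Both of the better expressed ones lay between 27.7 and 53.9 FPKM in all 4 libraries. At equal FPKM sums NCU01703 passed 2-fold with staurosporine in Δ*czt-1* (1.31).

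In the RefSeq gene order NCU07240 is separated by 1 gene from the short-chain dehydrogenase NCU07242. NCU07242 had 10.3 FPKM in Δ*czt-1* with staurosporine and 3.19 FPKM with DMSO, and 15.4 FPKM in the wild type with staurosporine and 7.92 FPKM with DMSO, changes of 1.43 and 0.88. The gene between them, the hypothetical protein NCU07241, was at 4.85 FPKM in Δ*czt-1* with staurosporine and at or below 0.723 FPKM in the other libraries, so it did not follow the wild-type rise of NCU07240. The short-chain dehydrogenases NCU02920 and NCU02922 are likewise separated by 1 gene, the cupin domain protein NCU02921, which was listed at 0 in every library.

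Among the short-chain dehydrogenases, no gene fell in Δ*czt-1* with staurosporine and 11 of the 23 that passed rose, while in the wild type 5 rose and 2 fell. All genes had 18.2% rises and 19.6% falls in Δ*czt-1*, and 12.8% and 14.0% in the wild type. At equal FPKM sums the counts came to 13 rises and 0 falls in Δ*czt-1*, against 34.8% and 10.5% of all genes. In the wild type they came to 14 rises and 1 fall, against 42.5% and 4.40%. The greater number of rises in Δ*czt-1* was thus lost, in a setting where all genes also had more rises in the wild type. Their median change was 0.70 in Δ*czt-1* and 0.37 in the wild type, or 0.75 and 0.33 from the median gene at equal FPKM sums. The largest rise in both strains was that of NCU01107, with 22.2 FPKM in Δ*czt-1* with staurosporine and 1.27 FPKM with DMSO (3.35), and 43.2 FPKM in the wild type with staurosporine and 5.72 FPKM with DMSO (2.72). NCU01861 was close to undetected with DMSO in both strains, at 0.0955 FPKM in Δ*czt-1* and 0.101 FPKM in the wild type, and reached 3.90 and 4.67 FPKM with staurosporine. It passed the filter only through the staurosporine libraries, so its rise, counted among the 11 and the 5, was set by the filter.

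The most expressed short-chain dehydrogenases of the staurosporine libraries were NCU02480 and NCU03893. NCU02480 had 258 FPKM in Δ*czt-1* with staurosporine and 86.4 FPKM with DMSO, and 172 FPKM in the wild type with staurosporine and 72.9 FPKM with DMSO. NCU03893 had 180.1 and 47.2 FPKM in Δ*czt-1* with staurosporine and DMSO, and 127 and 74.9 FPKM in the wild type. For both, the order of the libraries within each strain was the same, and the highest level was that of Δ*czt-1* with staurosporine. NCU02480 rose in both strains (1.56 in Δ*czt-1* and 1.22 in the wild type), whereas NCU03893 rose in Δ*czt-1* (1.91) and changed by 0.75 in the wild type, a difference between the responses of 1.16. That difference became 0.93 at equal FPKM sums.

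NCU05164 and NCU00148 rose to similar extents in the strains. The changes of NCU05164 were 1.66 in Δ*czt-1*, with 57.9 and 17.6 FPKM with staurosporine and DMSO, and 1.84 in the wild type, with 106 and 29.0 FPKM. Those of NCU00148 were 1.07 in Δ*czt-1*, with 56.6 and 26.3 FPKM, and 1.34 in the wild type, with 48.6 and 18.6 FPKM. Besides NCU03893 and NCU07242, 4 genes passed 2-fold in Δ*czt-1* and not in the wild type on the deposited scale. At equal FPKM sums only NCU02097 of these 6 stayed below 2-fold in the wild type (0.72), while NCU03893 (1.65), NCU07242 (1.70), NCU04791 (1.80), NCU05094 (1.35) and NCU02335 (1.58) passed in both strains. NCU04791 (*mig-10*) was at 112 and 27.1 FPKM in Δ*czt-1* with staurosporine and DMSO and at 61.6 and 32.2 FPKM in the wild type. NCU02097 was at 10.8 and 2.13 FPKM in Δ*czt-1* and at 4.10 and 4.14 FPKM in the wild type. The weaker NCU05094 and the moderately expressed NCU02335 completed this group, with changes in Δ*czt-1* of 2.28 and 1.16 and in the wild type of 0.78 and 0.70.

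The short-chain dehydrogenase NCU08057 was highest in the wild type with DMSO. It had 4.40 FPKM in Δ*czt-1* with staurosporine and 2.66 FPKM with DMSO, and 2.29 FPKM in the wild type with staurosporine and 10.96 FPKM with DMSO. It fell in the wild type (−1.86) and changed by 0.56 in Δ*czt-1*, or by 1.10 at equal FPKM sums, and the difference of 2.42 between the responses was the highest of the set. NCU00606, the other that fell in the wild type, had 3.43 and 5.61 FPKM in Δ*czt-1* with staurosporine and DMSO and 1.61 and 6.48 FPKM in the wild type (−1.52, or −0.83 at equal FPKM sums). NCU07904, the most expressed short-chain dehydrogenase with DMSO, came just short of a 2-fold fall in both strains on the deposited scale. It had 48.0 and 94.0 FPKM in Δ*czt-1* with staurosporine and DMSO (−0.95) and 58.7 and 115 FPKM in the wild type (−0.96, or −1.07 when centred on the median gene). At equal FPKM sums its changes were only −0.29 in Δ*czt-1* and −0.06 in the wild type. The other 9 that passed were NCU00305, NCU01399, NCU02018, NCU03566, NCU06716, NCU06845, NCU07434, NCU09735 and NCU11963. They stayed below 2-fold in all 4 comparisons on the deposited scale, with changes between −0.76 and 0.70 in Δ*czt-1* and between −0.63 and 0.60 in the wild type. The most expressed of them was NCU02018, with 85.7 and 52.4 FPKM in Δ*czt-1* with staurosporine and DMSO and 62.2 and 51.1 FPKM in the wild type. At equal FPKM sums NCU02018 rose in both strains (1.36 in Δ*czt-1* and 1.17 in the wild type). NCU03566 (1.16), NCU06716 (1.04) and NCU09735 (1.39) then rose in the wild type alone.

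**Figure D3:**
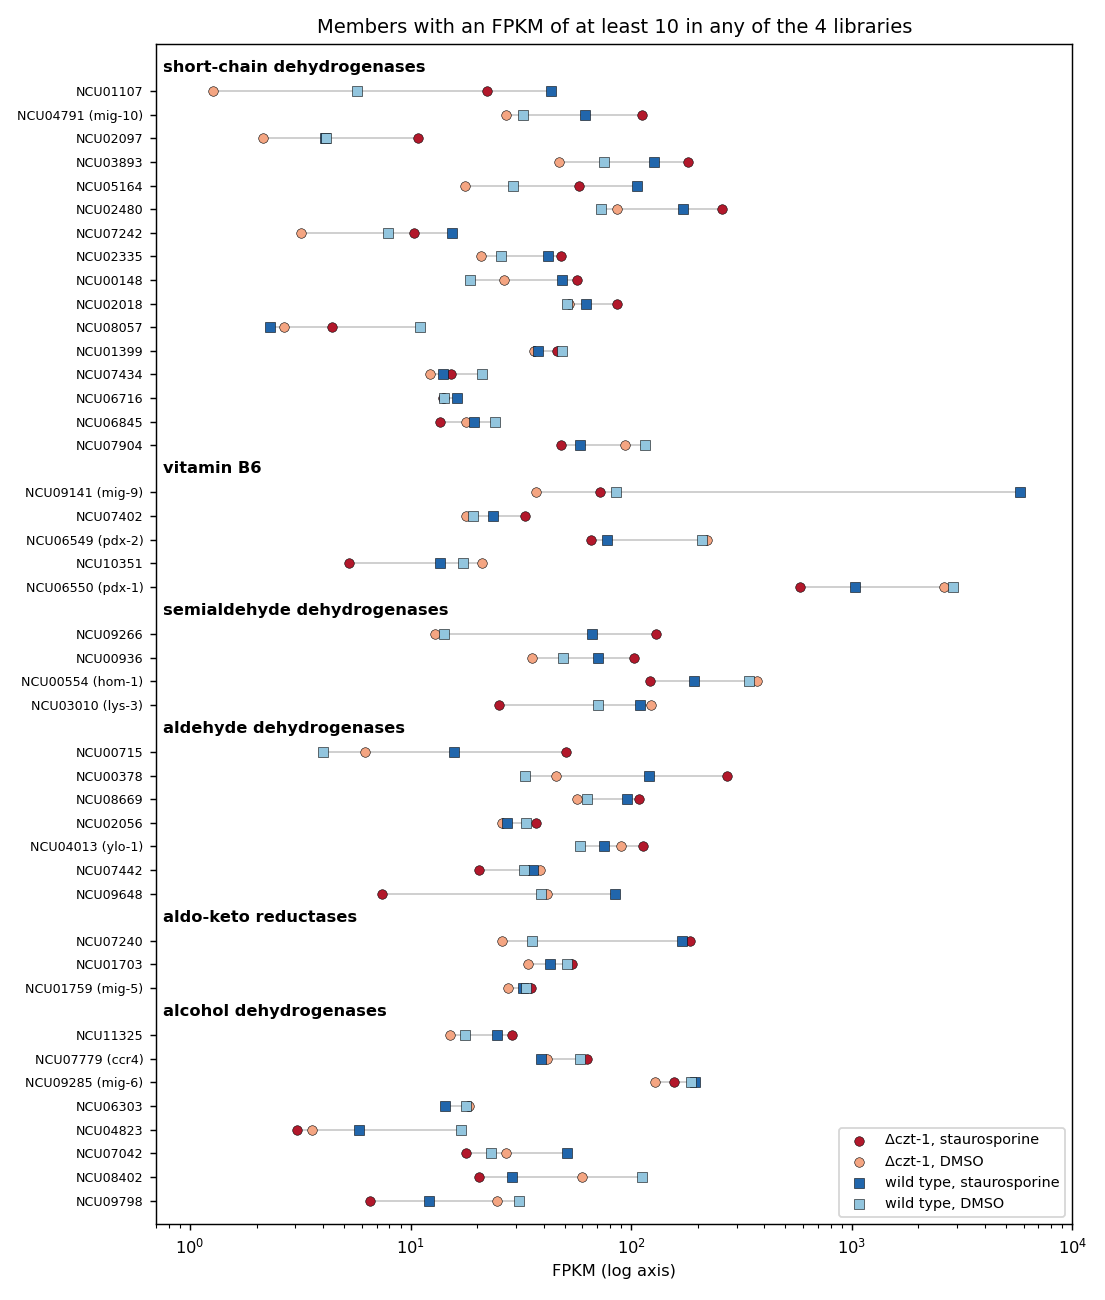
FPKM (log axis) of the genes of the set with at least 10 FPKM in any library, 1 point per library, circles for Δczt-1 and squares for the wild type, dark for staurosporine and light for DMSO. Dark symbols lie right of light ones for NCU01107, NCU07240 and NCU09266 and left of them for pdx-1, NCU08402 and NCU09798.

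Of the 10 alcohol dehydrogenases, 2 rose and 2 fell with staurosporine in Δ*czt-1*, where all genes had 18.2% rises and 19.6% falls. In the wild type 1 rose and 3 fell, against 12.8% and 14.0% of all genes. At equal FPKM sums the counts were 4 rises and 1 fall in Δ*czt-1*, where all genes then had 34.8% rises and 10.5% falls. In the wild type they were 3 rises and 1 fall, against 42.5% and 4.40% of all genes. NCU08402, described as zinc-binding, had 20.3 FPKM in Δ*czt-1* with staurosporine and 59.8 FPKM with DMSO, and 28.8 FPKM in the wild type with staurosporine and 112 FPKM with DMSO. NCU09798, an aryl-alcohol dehydrogenase by description, had 6.51 FPKM in Δ*czt-1* with staurosporine and 24.7 FPKM with DMSO, and 12.1 FPKM in the wild type with staurosporine and 31.0 FPKM with DMSO. For both genes the staurosporine libraries lay below the DMSO libraries of either strain. The falls were −1.51 in Δ*czt-1* and −1.92 in the wild type for NCU08402, and −1.77 and −1.29 for NCU09798. At equal FPKM sums, NCU08402 came to −0.86 in Δ*czt-1* and NCU09798 to −0.43 in the wild type.

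The most expressed alcohol dehydrogenase, the zinc-containing NCU09285 (*mig-6*), had 156 and 129 FPKM in Δ*czt-1* with staurosporine and DMSO and 194 and 186 FPKM in the wild type, changes of 0.27 and 0.06. NCU07042 was at 17.8 FPKM in Δ*czt-1* with staurosporine and 27.1 FPKM with DMSO, and at 51.1 FPKM in the wild type with staurosporine and 23.2 FPKM with DMSO. It rose in the wild type (1.11, or 0.9973 when centred on the median gene) and changed by −0.58 in Δ*czt-1*, a difference between the responses of −1.69. NCU02850 and NCU09035, both weakly expressed, rose in Δ*czt-1* to 4.77 and 9.89 FPKM with staurosporine, against 0.322 and 3.06 FPKM with DMSO. In the wild type NCU09035 had 6.33 and 2.74 FPKM with staurosporine and DMSO, a change of 0.97, or 1.69 at equal FPKM sums. NCU02850 had 0.357 and 0.217 FPKM there (0.16). It passed the filter only through the Δ*czt-1* staurosporine library, so its rise was set by the filter. The row of *ccr4* had 62.9 and 41.5 FPKM in Δ*czt-1* with staurosporine and DMSO and 38.8 and 58.6 FPKM in the wild type, changes of 0.59 and −0.58. At equal FPKM sums its changes were 1.25 and 0.31, both above 0. NCU06303 and NCU11325 stayed below 2-fold in all 4 comparisons on the deposited scale, at 14.3 to 28.9 FPKM. At equal FPKM sums NCU11325 rose by 1.54 in Δ*czt-1* and 1.32 in the wild type.

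Between the strains with DMSO, the set was lower in Δ*czt-1* where it differed on the deposited scale. None of the 54 genes was at least 2-fold higher and 5 (9.26%) were at least 2-fold lower, against 2.58% and 2.36% of the 7896 genes. The median difference was −0.19 for the set and 0.05 for all genes. The 5 were NCU09141, NCU01107, NCU07242, NCU08057 and NCU04823, an alcohol dehydrogenase described as NADP-dependent. NCU04823 had 3.04 FPKM in Δ*czt-1* with staurosporine and 3.56 FPKM with DMSO, and 5.80 FPKM in the wild type with staurosporine and 16.9 FPKM with DMSO, so that the wild type with DMSO alone was high. Its DMSO difference of −1.98 was the largest of the set, and it fell with staurosporine in the wild type (−1.40, or −0.58 at equal FPKM sums). Its comparisons and those of NCU08057 use the same wild-type DMSO library. At equal FPKM sums NCU01107, NCU04823 and NCU08057 remained at least 2-fold lower, NCU07242 and NCU09141 came to −0.81 and −0.88, and *lys-3* was higher, by 1.06. In that setting 1.85% of the set was higher and 5.56% lower, against 5.18% and 1.45% of all genes. The median difference was then 0.05 for the set and 0.28 for all genes.

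Between the strains with staurosporine, 5 genes (9.26%) were at least 2-fold higher in Δ*czt-1* and 5 (9.26%) at least 2-fold lower, against 10.9% and 12.2% of the 7896 genes. The 5 lower were NCU09141 (−6.31), NCU09648 (−3.35), *lys-3* (−2.09), NCU07042 (−1.47) and the pyridoxine kinase NCU10351 (−1.22). The 5 higher were NCU02850 (2.09), NCU00715 (1.62), NCU02097 (1.21), NCU00378 (1.17) and NCU05094 (1.12), of which NCU02850 and NCU05094 were below 10 FPKM in every library. NCU02850 passed the filter only through the library in which it is higher, and 4 remain without it. The differences between the responses, Δ*czt-1* minus the wild type, were at least 2-fold above 0 for 10 genes (18.5%) and at least 2-fold below 0 for 6 (11.1%), against 13.5% and 17.5% of the 7896 genes. At equal FPKM sums these counts were 4 (7.41%) and 8 (14.8%), against 11.5% and 22.8% of all genes. When centred on the median gene they were 13 (24.1%) and 5 (9.26%), against 15.9% and 15.0% of all genes. The 6 below 0 were the same 5 genes and the betaine aldehyde dehydrogenase NCU07442 (−1.02), which had 20.4 and 38.7 FPKM in Δ*czt-1* with staurosporine and DMSO and 36.0 and 32.7 FPKM in the wild type.

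**Figure D4:**
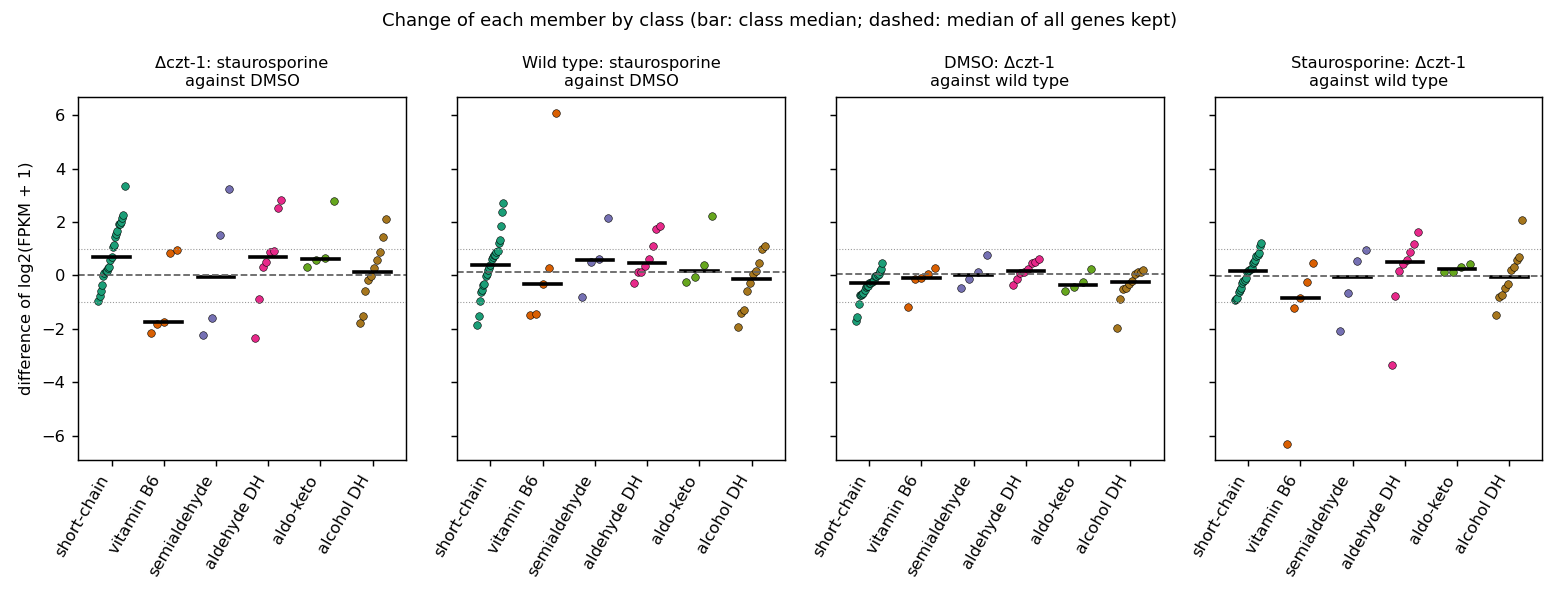
Difference of log2(FPKM + 1) of each gene of the set that passed the filter, by class, in the 4 comparisons; bars are class medians, the dashed line is the median of all 7896 genes and dotted lines mark 2-fold. The short-chain dehydrogenases have a median of 0.70 in Δczt-1 with no gene below −1, and NCU09141 is the single point near 6 in the wild-type response and near −6 between the strains with staurosporine.

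Related genes were taken by words in their descriptions, with earlier results of these data known, and were read beside the set. Their changes were taken on the deposited scale and were not recounted at equal FPKM sums. A list of 199 other dehydrogenases and reductases, of which 191 passed the filter, had 39 rises (20.4%) and 39 falls (20.4%) with staurosporine in Δ*czt-1*, against 18.2% and 19.6% of all genes. In the wild type it had 36 rises (18.8%) and 25 falls (13.1%), against 12.8% and 14.0%. Its medians were 0.08 in Δ*czt-1* and 0.03 in the wild type. The 8 genes matched for the supply of NADPH, which drives the reductases, include glucose-6-phosphate dehydrogenase (NCU09111) and 6-phosphogluconate dehydrogenase (NCU03100) but also the lysine enzyme homoisocitrate dehydrogenase. The isocitrate dehydrogenase subunits *tca-4* and *tca-6* matched as well, and their descriptions do not name a cofactor. None of the 8 genes rose in either strain on the deposited scale. In Δ*czt-1* 2 fell, homoisocitrate dehydrogenase (*lys-7*) and *tca-6*, and *lys-7* alone fell in the wild type. Neither description names NADPH. NCU09111 had 290.2 and 380 FPKM in Δ*czt-1* with staurosporine and DMSO and 424 and 322 FPKM in the wild type, both changes being below 2-fold. Of the 33 genes matched as quinone and flavin reductases, most of them subunits of respiratory complex I, 2 (NCU04443 and NCU07783) rose and 3 (NCU01419, NCU04452 and NCU09460) fell in Δ*czt-1*, and 1 (NCU04443) rose and 3 (NCU01142, NCU04452 and NCU11348) fell in the wild type. Of the alcohol and aldehyde oxidases, 4 of 6 genes passed the filter, none changed 2-fold in Δ*czt-1*, and 1, the long chain fatty alcohol oxidase NCU08977, rose in the wild type, with 117 FPKM with staurosporine and 31.6 FPKM with DMSO.

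Of the genes left out of the set as part of ethanol and acetate metabolism, 2 had large changes. The alcohol dehydrogenase *adh-1* (NCU01754) had 48.2 and 3.41 FPKM in Δ*czt-1* with staurosporine and DMSO and 10.1 and 41.8 FPKM in the wild type, while the aldehyde dehydrogenase NCU03415 rose in both strains, with 232 and 30.3 FPKM in Δ*czt-1* and 283 and 22.8 FPKM in the wild type.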

How the data were processed

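Per the labels and the methods, the authors mapped 50-base reads with TopHat2 2.0.4, estimated abundance with Cufflinks 2.0.2 and compared pairs of libraries with Cuffdiff. They deposited FPKM, with a decimal comma, in 3 tables. Libraries that occur in 2 tables had identical values, so levels were set side by side across tables. The fold changes, test statistics, p-values and q-values of the authors' own comparisons were not used. Neither the genome build of these tables nor the handling of reads shared by similar genes is given in the sources used here. Values within these multigene families are therefore uncertain, and 66 rows join several loci, none of the set.

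Read numbers are unknown. Among 1242 genes below 1 FPKM in both DMSO libraries, ratios gathered most at simple multiples of 0.717 (42 genes within 0.1%, against a median of 4 over the steps tried), which would make 1 read worth less FPKM in the Δ*czt-1* DMSO library.

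Changes were differences of log2(FPKM + 1), taken for genes that reached 1 FPKM somewhere among the 4 libraries, counted at 2-fold, without a test, since there was 1 library per condition (Python 3.11.15, pandas 2.3.3, NumPy 2.4.6, SciPy 1.17.1). The code was tested on simulated data. RefSeq gene names and order (NC12 assembly) matched 58 of the 59 genes. The order was taken from gene start positions on each chromosome, and coordinates had no other use. Protein identity was not analysed here.

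The members and lists were chosen with earlier results of these data known. Named genes were, in each comparison, the 6 largest rises and 6 largest falls among members with at least 10 FPKM in either library, the 5 most expressed per library, the vitamin B6 and semialdehyde genes, opposite changes, zeros and neighbors. Others named to account for the counts were chosen after their values were seen. The alternatives were pseudocounts of 0.1 and 5, other filters, centring, equal FPKM sums, narrower membership and other fold thresholds.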

Additional observations from a re-analysis of the deposited data

Results flagged for a closer look

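The aldehyde dehydrogenase NCU09648 moved in opposite directions in the strains, each by at least 2-fold, in 1 library per condition. Its staurosporine response in Δ*czt-1* minus that in the wild type was −3.43 on the log2(FPKM + 1) scale, the 20th lowest of 7896 genes. The difference was not tested.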

How the results depend on the processing

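No paired analysis was possible because each condition has 1 library, and none could be left out. No gene of the set that changed 2-fold reversed its direction under other pseudocounts, centring or equal FPKM sums. With all libraries brought to an equal FPKM sum, the rises with staurosporine became 28 (51.9%) in Δ*czt-1* and 29 (53.7%) in the wild type, against 34.8% and 42.5% of all genes. The wild-type falls became 2 (3.70%), against 4.40%, and the medians of the set 1.12 and 1.09, against 0.61 and 0.84. In that setting, the median difference between the DMSO libraries was 0.0487, with 1 gene (1.85%) higher and 3 (5.56%) lower in Δ*czt-1*, against 5.18% and 1.45%. By 2-fold, 4 responses (7.41%) were higher in Δ*czt-1*, against 11.5%. A pseudocount of 5 left 3 genes lower in Δ*czt-1* with DMSO, 2 higher with staurosporine and 6 responses higher, and a minimum of 10 FPKM left 3 higher with staurosporine. Without the semialdehyde and other vitamin B6 genes, 3 of 47 genes fell in Δ*czt-1* and 3 were lower than in the wild type with staurosporine, against 19.6% and 12.2% of the 7896 genes. At 1.5-fold, 21 genes rose in the wild type. Between the strains, 2 were higher and 10 lower in Δ*czt-1* with DMSO, 11 higher and 14 lower with staurosporine, and 20 responses were higher. At 4-fold, 9 rose and 3 fell in Δ*czt-1*, and 5 rose and 0 fell in the wild type. Between the strains, with DMSO 0 were lower in Δ*czt-1*, 1 was higher and 3 were lower with staurosporine, and 1 response was higher and 3 were lower. The share of all genes was not computed for the pseudocount of 5, the minimum of 10 FPKM, 1.5-fold or 4-fold. The counts in those settings therefore do not show how the set compares with all genes. Leaving out *ccr4*, or the 3 genes that passed the filter in staurosporine libraries only, both chosen after seeing the data, moved no count by over 1.5 times. The cause of these shifts was not tested. Without replicates, depth or a test, the values compare libraries, and those of genes near 1 FPKM rest on few reads.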
